A study of Mus musculus with 24 samples.

Results

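Gene expression in quadriceps muscle of mdx mice was compared between 5 days and 3 weeks of age, on 6 of the 24 arrays of the series: the 3 arrays titled as mdx quadriceps at 3 weeks and the 3 titled as mdx quadriceps at 5 days. In mdx mice a premature stop codon in Dmd, which encodes dystrophin, is present in every tissue and from birth, and the strain is the standard mouse model of Duchenne muscular dystrophy. BL10 mice, the control strain with intact Dmd, were profiled at the same ages (3 arrays each at 5 days and 3 weeks), and the change with age in BL10 was set beside the change in mdx. No treatment is named for any group, the labels give no sex, and they call the arrays of a group biological replicates without saying how many animals gave each RNA. Where 1 RNA is not 1 animal, p-values measure only the spread between these samples.

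Levels below are log2(intensity + 16) after quantile normalization, on which 4.0 is the lowest possible value and stands for an intensity at or below 0. A change is the mean at 3 weeks minus the mean at 5 days on that scale, with its standard error (SE) from the limma fit, and a gene was called at a Benjamini-Hochberg adjusted p under 0.05. The added 16 makes the changes of dim genes look smaller than they are. Markers of skeletal muscle, which do not single out the quadriceps, were checked first. Over the 12 arrays of the 4 groups, skeletal actin (Acta1) read 13.88 to 14.11, muscle creatine kinase (Ckm) 13.88 to 14.11, titin (Ttn) 13.15 to 13.73 and desmin (Des) 11.90 to 12.78.

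Dmd read 8.29, 8.06 and 8.48 in mdx at 5 days and 7.94, 7.64 and 8.25 in mdx at 3 weeks, against 9.87, 10.02 and 10.02 in BL10 at 5 days. All 6 mdx arrays lay below the lowest BL10 array at 5 days. In BL10 at 3 weeks Dmd read 8.88, 8.02 and 10.13, so that the array labelled replicate 2 of BL10 at 3 weeks lay inside the mdx range and opposes its label. With that array left out, limma also called the differences between strains of Cdh5 (adjusted p = 0.0362), Lamp2 (0.0492) and Slc4a1 (0.0437) and the mdx changes of Dbp (0.038) and Sdhb (0.0477), besides the values for Myh3, Mki67, Mcm3 and Myog given below. Outside the 4 groups, Dmd opposed the label on replicate 3 of mdx at 2 weeks (10.31) and on all 3 mdx arrays at 6 weeks (9.84 to 10.04, against 9.82 to 10.25 in BL10 at 6 weeks), so that 5 of the 24 arrays did so. Those 4 arrays enter the values below through the normalization, the filter on dim genes and the shared spread. The Y-linked gene Eif2s3y was at 4.0 on replicate 1 of BL10 at 5 days, where Xist read 11.65, and Eif2s3y read 7.73 to 9.78 on the other arrays of the 4 groups. A sign of RNA quality also moved with age in mdx: the 3′ minus 5′ Gapdh control signal was -0.19, -0.10 and -0.12 at 5 days and 0.71, 0.42 and -0.20 at 3 weeks, and its part in the results was not tested.

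Dystrophin links the actin cytoskeleton of a muscle fibre to the extracellular matrix through a membrane complex, and fibres without it are torn by contraction. In mdx mice the muscle looks nearly normal in the first days after birth, and at around weaning fibres begin to die in waves, drawing in monocytes and macrophages, after which satellite cells rebuild fibres that pass again through an embryonic program. The same weeks are a time of normal maturation in any mouse, in which embryonic and neonatal myosins give way to adult fast myosins, imprinted fetal growth genes shut down and cell division in the muscle slows.

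Of 15000 genes tested, limma called 3032 between 5 days and 3 weeks in mdx, which is 20.2% of the genes. Of these, 1910 rose (12.7% of genes tested) and 1122 fell (7.48%). Over the same ages BL10 had 4094 called genes (27.3%), of which 2306 rose (15.4%) and 1788 fell (11.9%). The counts in gene lists below stand beside these shares of all genes, and a few calls in a short list are near them. At least 2-fold changes were called for 1256 genes in mdx (8.37%) and 1493 in BL10 (9.95%). Without regard to the test, the 3 mdx arrays at 3 weeks all lay above the 3 at 5 days for 18.2% of genes and all below for 11.8%, against 27.1% and 20.8% in BL10. Of the 1910 genes that rose in mdx, 893 also rose in BL10, which is 46.8% of the mdx genes and 38.7% of the BL10 genes, 25 fell in BL10 and 992 were not called there. Of the 1122 genes that fell in mdx, 611 also fell in BL10 (54.5% of the mdx genes and 34.2% of the BL10 genes), 4 rose and 507 were not called. A gene called in 1 strain and not in the other is not thereby shown to differ, so the difference of the changes, mdx minus BL10, was tested for every gene. It was called for 264 genes (1.76%), with 187 more positive in mdx (1.25%) and 77 more negative (0.513%), and 240 of the differences were at least 2-fold (1.6%). Of the 264, 70.8% were more positive in mdx, against 89.2% of 493 with values as deposited and 86.4% of 397 with median centring, and as deposited 43.5% of BL10 calls were higher rather than 56.3%. The comparisons of changes share their 5-day and 3-week arrays with the changes themselves.

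For most of those 187 genes the strains stood farther apart at 3 weeks than at 5 days. The gap between the strain means was larger at 3 weeks for 136 of the 187, with a median mdx minus BL10 gap of -0.50 at 5 days and 1.01 at 3 weeks. For the other 51 the larger gap was at 5 days. In mdx 138 of the 187 rose and none fell, whereas in BL10 74 fell, 6 rose and 107 were not called. Among the 77 genes with a more negative change in mdx, 28 fell in mdx and none rose, and 53 rose in BL10. The count of 264 depended on single arrays: it ran from 102 without replicate 3 of BL10 at 5 days to 539 without replicate 2 of BL10 at 3 weeks, and it moved by over 1.5 times on leaving out any 1 of the 12 arrays except replicate 1 of BL10 at 3 weeks (207). The count of mdx changes was 1868 without replicate 2 of mdx at 3 weeks, and that of BL10 changes was 2519 without replicate 3 of BL10 at 5 days and 2419 without replicate 3 of BL10 at 3 weeks. Without the 3 mdx arrays at 6 weeks the difference was called for 134 genes, and without all 5 arrays whose Dmd opposes the label for 438. Without the 6-week mdx arrays the mdx calls of S100a9, Vwf, Chrna1, Itgbl1, Foxo3 and Rapsn and the differences of Ccr2, Ctss, Pvalb, Slfn4, Dpep1, Nutm1 and Tmem267 were lost. These alternatives were chosen after seeing the data. Fitted on the 6 mdx arrays alone, the mdx change was called for 855 genes, and on the 12 arrays of the 4 groups the difference was called for 15.

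**Figure D1:**
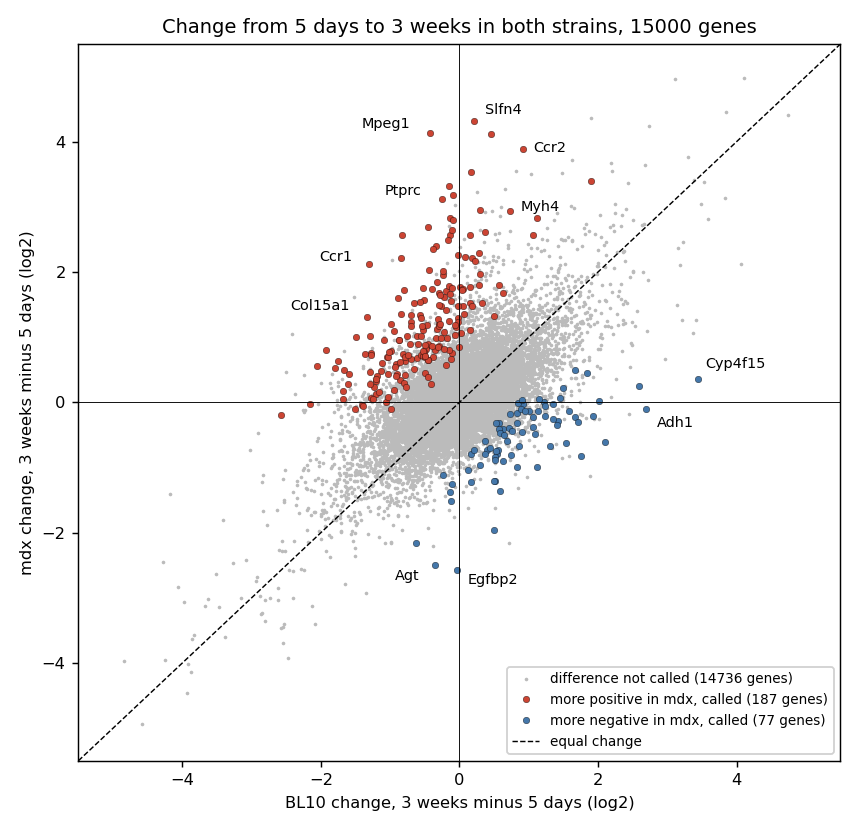
Each point is 1 of the 15000 genes, with its log2 change from 5 days to 3 weeks in BL10 on the horizontal axis and in mdx on the vertical axis; red and blue points are the 187 and 77 genes whose difference of the changes was called. Mpeg1 (4.13 in mdx, -0.42 in BL10) and Ccr2 (3.89 and 0.92) lie above the line of equal change, and Adh1 (-0.11 and 2.69) and Cyp4f15 (0.36 and 3.45) lie below it.

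Macrophages clear dead fibres and later support repair, and most of their markers rose in mdx. Of 25 tested, 18 rose in mdx (12.7% of all genes rose) and none fell, with a median change of 1.35 over the list beside 0.05 over all 15000 genes. In BL10 none of the 25 rose and 1 fell, Csf1r, the receptor for macrophage growth factor, with a median of -0.13 beside 0.07 over all genes. For 9 of the 25 the difference of the changes was called, all more positive in mdx (1.25% of all genes). The mean level of the list was 7.06, 7.28 and 7.14 on the mdx arrays at 5 days and 7.83, 9.16 and 9.29 at 3 weeks, against 7.20, 7.22 and 6.82 in BL10 at 3 weeks. Replicate 1 of mdx at 3 weeks thus stood well below the other 2 mdx arrays of its age and still above all 6 BL10 arrays, which read 6.82 to 7.25. In whole muscle, more cells of a type and more RNA per cell cannot be told apart.

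Mpeg1, which encodes the pore-forming protein perforin-2 of macrophages, read 4.70, 5.28 and 4.96 in mdx at 5 days and 7.22, 10.01 and 10.09 at 3 weeks. The mdx ages did not overlap, and BL10 stayed between 4.23 and 5.85 on all 6 arrays. The mdx change was 4.13 (SE 0.59, n = 3 per group, limma adjusted p = 5.56e-05) and the difference from BL10 was 4.55 (SE 0.83, adjusted p = 0.00931). Ptprc, the pan-leukocyte antigen CD45, read 6.26, 6.21 and 6.42 at 5 days and 8.64, 9.81 and 9.84 at 3 weeks, a change of 3.13 (SE 0.41). Cybb, the catalytic subunit of the phagocyte NADPH oxidase, rose from 5.51, 5.11 and 5.69 to 7.93, 8.77 and 9.15 (change 3.18, SE 0.43). Gpnmb, a membrane glycoprotein of macrophages, read 5.64, 6.89 and 5.25 at 5 days and 6.43, 10.74 and 9.43 at 3 weeks, so that replicate 1 at 3 weeks lay within the 5-day values. The beta-glucan receptor Clec7a, outside the list, was at 4.0 on all 3 mdx arrays at 5 days and read 6.78, 8.03 and 9.54 at 3 weeks, so no fold is given.

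Other macrophage markers changed less. Adgre1, which encodes F4/80, rose by 1.22 (SE 0.22) and the lysosomal marker Cd68 by 1.56 (SE 0.36). The resident-type markers Mrc1 and Cd163 did not pass the test, at 0.75 (SE 0.30, adjusted p = 0.0774) and 0.39 (SE 0.29, adjusted p = 0.371), and the lipid-sensing receptor Trem2 changed by -0.12 (SE 0.18, adjusted p = 0.7). Csf1r, Mrc1, Cd163 and Trem2 were chosen after their values were seen. Without replicate 1 of mdx at 3 weeks 22 markers rose, without replicate 3 of that group 14 did, and with the 6 mdx arrays fitted alone 9 did. Called differences from BL10 numbered 18 without replicate 1 of mdx at 3 weeks, 6 without replicate 2 or 3 of that group or replicate 1 or 3 of BL10 at 5 days, and 4 on the 12 arrays of the 4 groups alone.

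**Figure D2:**
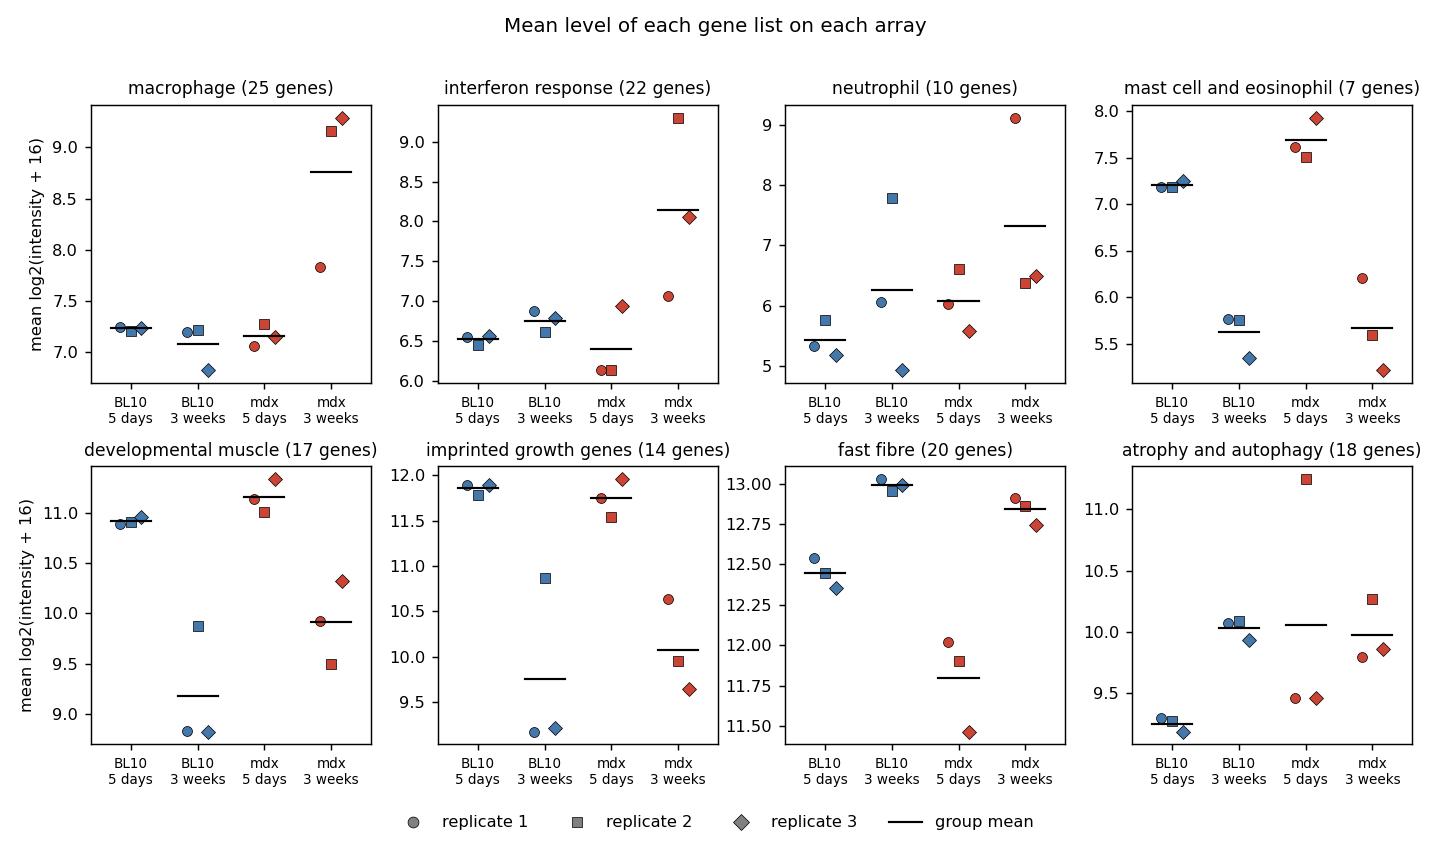
Each panel gives the mean log2(intensity + 16) of the tested genes of 1 list on each of the 12 arrays, with 3 symbols for the 3 replicates, blue for BL10, red for mdx and a bar for the group mean; the vertical axes differ between panels. Macrophage and interferon lists are high in mdx at 3 weeks with replicate 1 lowest, the neutrophil list is high on replicate 1 of that group (9.12 against 6.37 and 6.49), and the imprinted list falls in both strains with replicate 2 of BL10 at 3 weeks well above the other 2.

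Of 19 chemokines and chemokine receptors tested, 12 rose in mdx (12.7% of all genes rose) and none fell, against 4 higher and 2 lower in BL10, and the list's median change was 1.88 in mdx and 0.39 in BL10. Ccr2, the receptor that brings inflammatory monocytes into tissue, read 5.10, 4.79 and 4.93 in mdx at 5 days and 7.77, 8.46 and 10.27 at 3 weeks. The ages did not overlap, and the mdx change was 3.89 (SE 0.48, adjusted p = 1.07e-05). Its ligand Ccl2 read 5.79, 4.42 and 5.03 at 5 days and 5.06, 9.31 and 8.98 at 3 weeks. Replicates 2 and 3 were high and replicate 1 was within the 5-day range, with a change of 2.71 (SE 0.68, adjusted p = 0.00705). Ccl6, another monocyte attractant, rose by 2.88 (SE 0.56) in mdx and by 2.03 in BL10. Cxcl10, an interferon-induced T cell attractant, read 5.29, 5.84 and 5.66 and then 5.48, 9.65 and 7.10, and its call was lost without that group's replicate 2 or without any 1 of the 5-day mdx arrays. The difference of the changes was called for 2 members, Ccr2 (2.98) and Ccr1 (3.42), the latter a receptor for several inflammatory chemokines that rose by 2.12 in mdx and fell by 1.30 in BL10. The difference of Ccr2 was lost without any 1 of 6 arrays, and without replicate 1 of mdx at 3 weeks 8 members had a called difference. With replicate 2 of mdx at 3 weeks left out 7 members rose, and with the 6 mdx arrays alone 3 did.

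Complement tags cells for uptake, and lysosomes digest what is taken up. Of 10 complement genes tested, 7 rose in mdx (12.7% of all genes rose) and 1 in BL10, and none fell in either. C3ar1, the receptor for the C3a fragment, read 5.65, 5.29 and 5.63 at 5 days and 6.09, 8.45 and 8.67 at 3 weeks, a change of 2.22 (SE 0.41) that differed from BL10 by 3.06 (adjusted p = 0.011). Factor B (Cfb), of the alternative pathway, rose by 2.02 (SE 0.35), and the C5a receptor C5ar1 by 1.34 (SE 0.28). These receptors were the 2 members with a called difference, which numbered 5 without replicate 1 of mdx at 3 weeks. The difference of C5ar1 was lost without any 1 of 3 arrays, among them replicate 2 of mdx at 3 weeks, and with its probe sets averaged. C1qb, a subunit of the first component, rose by 1.14 (SE 0.30), a call lost without replicate 2 or replicate 3 of mdx at 3 weeks. C1qa, another subunit of the same protein, was not called and read 7.61, 8.06 and 8.13 at 5 days and 6.24, 7.29 and 9.17 at 3 weeks. Of 17 lysosomal genes 10 rose in mdx and none fell, while in BL10 none rose and 1 fell, Lgmn. Cathepsin S (Ctss), a protease of antigen-presenting cells, rose by 2.83 (SE 0.50) from 7.81, 8.87 and 8.6 to 9.35, 11.96 and 12.48, and cathepsin B (Ctsb), found in nearly all cells, rose by 1.19 (SE 0.16), a call kept in all 27 settings tried. The difference of the changes was called for Ctss (2.97) and the hexosaminidase subunit Hexa, and that of Ctss was lost without any 1 of 8 arrays. Called lysosomal differences numbered 5 without replicate 1 of mdx at 3 weeks, 4 without replicate 2 of BL10 at 3 weeks and 0 without any 1 of 5 arrays. Hexa and Lgmn were chosen after their values were seen. The macrophage list, which also holds Ctss and C1qb, had 18 of 25 members higher in mdx, with list means of 7.06 to 7.28 at 5 days and 7.83 to 9.29 at 3 weeks, and its part in the chemokine, complement and lysosome changes was not tested. With the 6 mdx arrays alone 3 complement and 3 lysosomal genes rose.

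Targets of interferon rose in mdx. Type I interferon is a secreted signal that switches on genes limiting the spread of viruses. Of 22 targets tested, 18 rose in mdx (12.7% of all genes rose) and none fell, with all 22 changes above 0 and a median of 1.63. In BL10 1 rose, Gbp2, and the median was 0.24. The list mean was 6.13, 6.13 and 6.94 on the mdx arrays at 5 days, and at 3 weeks it was 7.07, 9.30 and 8.05. Replicate 2 at 3 weeks was the highest array, and replicate 1 was close to replicate 3 of the 5-day group.

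The promoters of these genes were searched for the core of the interferon-stimulated response element. The list was written as interferon targets, so its share of motifs describes the list and gives no separate support for a response in mdx. The RefSeq promoter table (mouse build GRCm38.p6, 250 bases before to 50 after the start site) held 19 of the 22 targets tested, and 12 of the 19 (63.2%) contained it, as GAAA, any 2 bases and GAAA, on either strand. Of the 18 targets that rose 16 were in the table, and 11 of those (68.8%) contained it. In all promoter windows of that length the motif was present in 3.44%, and among tested genes with a window in 3.48% of genes. Stretches of 5 of them are shown on the gene's strand, with matches on either strand in capitals, because these genes are described below.
Ifit1, chr19:34640755-34640844, + strand: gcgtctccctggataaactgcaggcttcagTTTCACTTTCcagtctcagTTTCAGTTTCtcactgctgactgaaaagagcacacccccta
Ifit3, chr19:34583343-34583432, + strand: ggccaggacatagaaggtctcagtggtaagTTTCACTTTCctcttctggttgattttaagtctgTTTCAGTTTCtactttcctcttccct
Rsad2, chr12:26456513-26456602, - strand: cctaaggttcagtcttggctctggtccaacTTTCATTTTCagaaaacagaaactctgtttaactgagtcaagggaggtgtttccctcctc
Oas1a, chr5:120907526-120907575, - strand: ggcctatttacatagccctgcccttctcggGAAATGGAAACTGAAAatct
Gbp2, chr3:142620574-142620662, + strand: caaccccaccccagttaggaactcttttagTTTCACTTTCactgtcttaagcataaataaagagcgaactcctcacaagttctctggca
Ifit1 and Ifit3 each carry 2 matches in the stretch shown, and in Oas1a 2 matches overlap. A match is a description of these letters and says nothing of binding.

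Ifit1, a protein that blocks translation of foreign RNA, read 4.16, 4.33 and 5.35 in mdx at 5 days and 5.63, 9.92 and 7.96 at 3 weeks. The ages did not overlap, replicate 2 was the highest, and the change was 3.22 (SE 0.63, adjusted p = 0.00103). Rsad2, the antiviral enzyme viperin, read 5.79, 6.31 and 8.04 and then 9.23, 11.49 and 9.25, a change of 3.28 (SE 0.56, adjusted p = 0.000356). Ifit3, a partner of Ifit1, changed by 2.45 (SE 0.55) and Oas1a, which makes the second messenger that activates RNase L, by 1.88 (SE 0.42). Gbp2, a guanylate-binding protein, rose by 2.34 (SE 0.31) in mdx and by 1.22 in BL10. Irf7, the factor that amplifies the response, read 5.08, 5.57 and 6.52 at 5 days and 6.37, 9.54 and 7.95 at 3 weeks. Its lowest 3-week array lay below its highest 5-day array, and the change was 2.23 (SE 0.48). The difference of the changes was called for 1 target, the membrane protein Ifitm3 (1.31, adjusted p = 0.0321), and was 2.97 for Ifit1 without a call (adjusted p = 0.0825). Without replicate 1 of mdx at 3 weeks 13 targets had a called difference, without replicate 3 of mdx at 5 days 4 did, and without any 1 of 7 arrays, replicates 2 and 3 of mdx at 3 weeks among them, none did. With replicate 2 of mdx at 3 weeks left out 13 targets rose rather than 18, and with the 6 mdx arrays alone 4 rose. Oas1a, Gbp2 and Ifitm3 were chosen after their values were seen.

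Several neutrophil markers were high on 1 mdx array at 3 weeks. Of 10 tested, 1 rose, S100a9, which read 6.50, 6.49 and 5.84 in mdx at 5 days and 11.36, 8.48 and 9.51 at 3 weeks (change 3.50, SE 1.17, adjusted p = 0.0379), a call lost without any 1 of the 6 mdx arrays other than replicate 2 at 3 weeks. S100a8, the first member of the list, was already high on some 5-day mdx arrays, at 8.77, 11.34 and 6.54, and read 11.18, 8.95 and 9.57 at 3 weeks. Its change of 1.01 (SE 1.21, adjusted p = 0.608) was not called, and its difference from BL10 was -0.02. Granule genes were far above the rest on replicate 1 of mdx at 3 weeks: Camp read 10.34 there and 4.54 and 4.46 on the other 2, Ngp 10.45 against 5.90 and 4.94, and Mpo 9.34 against 5.49 and 5.71. On the same array the collagenase Mmp13 read 10.74 against 5.24 and 4.83, the osteoclast protease Ctsk 10.99 against 7.93 and 7.97, and the erythroid gene Rhag 8.22 against 4.34 and 4.26. Replicate 2 of BL10 at 3 weeks was also raised, with Camp at 8.04, Ngp at 9.26 and a list mean of 7.78. These 6 genes and Lcn2 were chosen after their values were seen, and none of them was called. Lcn2, an acute-phase and granule protein, was highest at 5 days, at 8.64, 11.22 and 7.41, and read 7.05, 6.83 and 6.90 at 3 weeks. Lymphocyte markers gave 1 call in 10, immunoglobulin heavy chain Ighm, which rose by 2.07 in mdx and 2.09 in BL10.

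Mast cell proteases fell in both strains. Of 7 mast cell and eosinophil genes tested, 4 fell in mdx (7.48% of all genes fell) and 5 in BL10 (11.9%), with medians of -3.12 and -2.13. Cpa3, mast cell carboxypeptidase, read 9.03, 9.26 and 10.84 in mdx at 5 days and 6.36, 6.32 and 5.38 at 3 weeks, a change of -3.69 (SE 0.39, adjusted p = 1.97e-06). The chymases Cma1 and Mcpt4 changed by -3.45 (SE 0.31) and -3.41 (SE 0.51), and the tryptase Tpsb2 by -3.12 (SE 0.29). For all 4 the mdx arrays did not overlap between the ages. These 4 calls held in all 27 settings tried, and limma called none of the 7 differences from BL10 (1 had an unadjusted p under 0.05), that of Cpa3 being -1.15 (SE 0.56, adjusted p = 0.298).

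**Figure D3:**
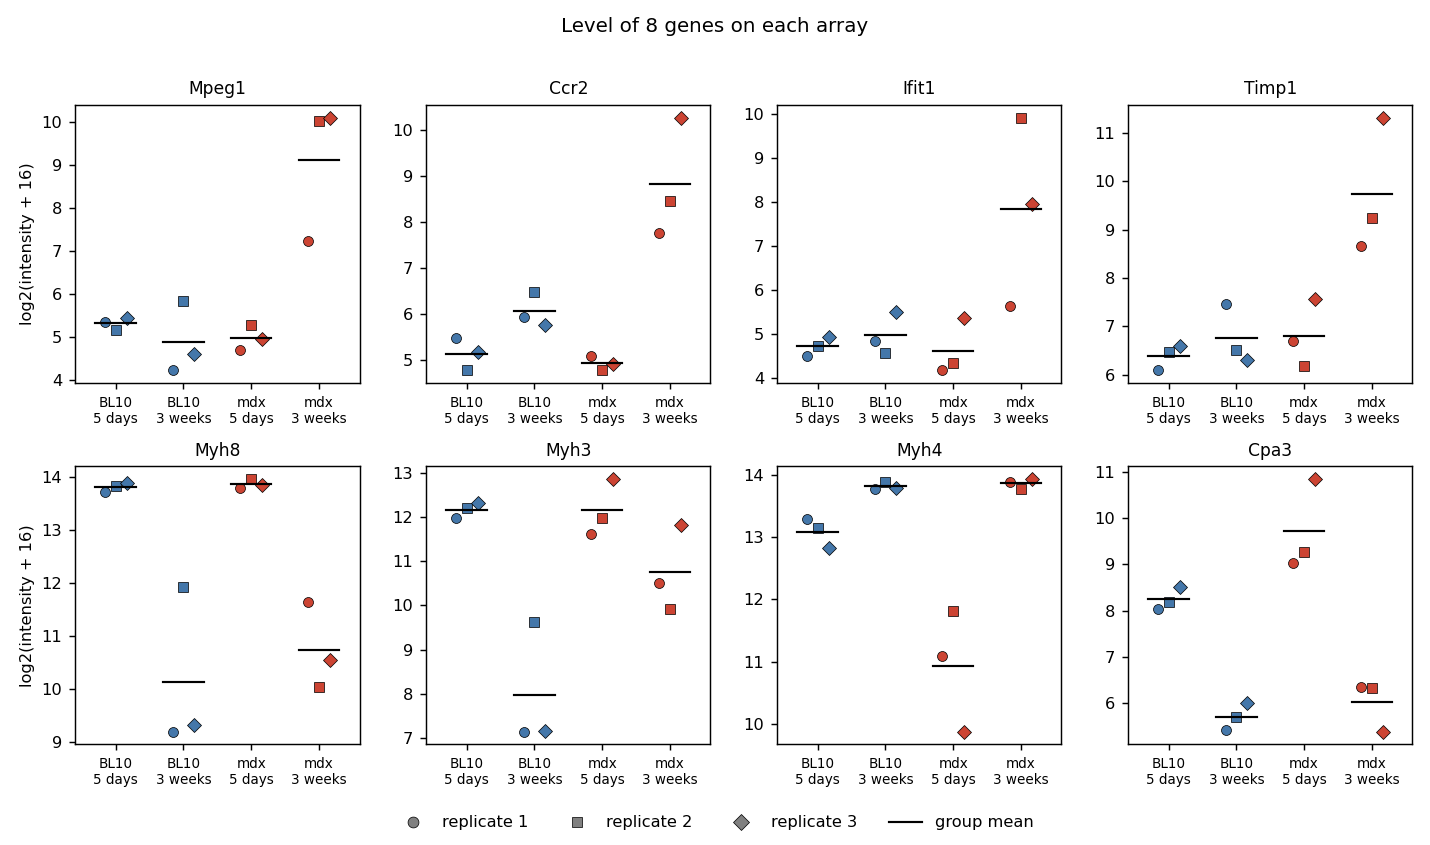
Levels of 8 genes as log2(intensity + 16) on each of the 12 arrays, with symbols for the 3 replicates, colour for the strain and a bar for the group mean; the vertical axes differ between panels. Mpeg1, Ccr2, Ifit1 and Timp1 are high in mdx at 3 weeks, Myh8 and Cpa3 fall in both strains, Myh3 stays at 9.92 to 11.82 in mdx at 3 weeks, and Myh4 starts lower in mdx and reaches the same level.

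Vessel, nerve and other stromal lists had fewer calls, several of them near the shares of all genes (12.7% higher and 7.48% lower in mdx). Of 15 endothelial markers 5 rose in mdx and none fell, against 1 in BL10. The VEGF receptor Flt1 rose by 1.08 (SE 0.19), the adhesion protein Esam by 0.93 (SE 0.23) and the coagulation factor Vwf by 0.98 (SE 0.33), while Pecam1 changed by 0.20 (SE 0.42, adjusted p = 0.787) and Kdr by 0.37 (SE 0.33, adjusted p = 0.472). The 5-day mdx arrays started low: the endothelial list mean was 8.55, 8.08 and 8.63 there and 9.60, 8.72 and 8.63 at 3 weeks, against 9.42, 9.23 and 9.21 in BL10 at 5 days. Without replicate 1 of mdx at 3 weeks, or without replicate 2 of mdx at 5 days, 3 markers rose, and the call of Vwf was lost without any 1 of 4 mdx arrays. Rgs5, a signalling regulator of pericytes, was the 1 of 10 mural markers that rose, from 11.16, 10.90 and 10.49 to 12.27, 11.93 and 12.06, and its change exceeded that of BL10 by 1.26 (adjusted p = 0.0182). BL10 already read 12.02 to 12.03 at 5 days.

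Among 11 markers of fibro-adipogenic progenitors 1 rose in mdx, the chemokine Cxcl14 (2.01, SE 0.41), and 2 fell, the matrix protein Mfap5 (-1.06, SE 0.25) and the plasminogen-binding protein Clec3b (-1.12, SE 0.26). Without replicate 1 of mdx at 3 weeks 4 of these markers fell, and with the 6 mdx arrays alone none did. Pdgfra, which defines these cells, changed by -0.57 (SE 0.22, adjusted p = 0.0704). In BL10 1 of the 11 rose and 2 fell, among them Clec3b (-1.02), while Cxcl14 (0.97) and Mfap5 (-0.64) were not called there. Of 11 tendon markers 1 fell, Tnmd (-2.38, SE 0.60), whose call was lost without replicate 3 of either mdx group, and 1 rose, Itgbl1, whose call held in 12 of 27 settings. In BL10 1 tendon marker rose and 2 fell, among them Tnmd (-1.87). Of 7 Schwann cell genes 2 rose, Mbp and Cnp, both of the myelin sheath. Mbp read 10.32, 9.73 and 6.07 at 5 days and 11.37, 9.78 and 12.49 at 3 weeks, and its call was lost without replicate 3 of mdx at 5 days and without replicate 1 or 3 at 3 weeks, when no Schwann cell gene rose. Adipocyte markers gave 1 call in 9, the desaturase Scd1, which rose in both strains (2.31 in mdx and 2.36 in BL10). Ucp1, the uncoupling protein of brown fat, read 4.48, 4.07 and 4.0 in mdx at 5 days and 11.59, 11.36 and 4.53 at 3 weeks, and was also high in BL10 at 3 weeks, at 11.78, 7.27 and 8.76. It was chosen after its values were seen and was not called (adjusted p = 0.0551). Hp, the haemoglobin scavenger haptoglobin, had the largest rise of all called genes without overlap, 4.96 (SE 0.69), and rose by 3.12 in BL10.

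Developmental muscle genes encode fetal and neonatal forms of muscle proteins. Of 17 tested, 10 fell in mdx and 11 in BL10, 1 rose in each, the cardiac actin Actc1, and the medians were -1.40 and -1.95. Myh8, the neonatal myosin heavy chain, read 13.79, 13.96 and 13.86 in mdx at 5 days and 11.65, 10.04 and 10.55 at 3 weeks. The change of -3.12 (SE 0.59, adjusted p = 0.000841) was close in size to the -3.67 of BL10, with a difference of 0.54 (SE 0.84). Dlk1, an imprinted inhibitor of differentiation, changed by -3.97 (SE 0.71) in mdx and by -4.84 in BL10. The fetal acetylcholine receptor subunit Chrng read 7.94, 7.35 and 8.66 at 5 days and 4.93, 6.51 and 7.99 at 3 weeks, a change of -1.50 (SE 0.49) whose call was lost without any 1 of 4 mdx arrays. Actc1 was chosen after its values were seen. With replicate 2 of mdx at 3 weeks left out 4 members fell, and with the 6 mdx arrays alone 5 did.

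Embryonic myosin was not called lower in mdx over all arrays. Myh3, which is expressed in embryonic and in newly formed fibres, read 11.62, 11.96 and 12.85 in mdx at 5 days and 10.50, 9.92 and 11.82 at 3 weeks. The ages overlapped and the change of -1.40 (SE 0.66) was not called (adjusted p = 0.14). In BL10 it read 11.96, 12.19 and 12.32 at 5 days and 7.14, 9.63 and 7.16 at 3 weeks, a change of -4.18 that was called. All 3 mdx arrays at 3 weeks lay above all 3 BL10 arrays, of which replicate 2, whose Dmd opposes its label, was the highest. The difference of the changes was 2.78 (SE 0.93) and was not called (limma adjusted p = 0.122). With that BL10 array left out the Myh3 difference was 3.61 (SE 0.845) and was called (adjusted p = 0.0239), and with all 5 arrays whose Dmd opposes the label left out it was 3.59 (adjusted p = 0.00772) and Myh3 was called lower in mdx (-1.40, adjusted p = 0.0185). Igf2bp3, an RNA-binding protein that stabilises Igf2 messenger RNA, was the 1 member with a called difference: it fell by 1.25 (SE 0.15) in mdx, from 8.11, 8.24 and 8.31 to 6.94, 6.99 and 6.98, and changed by -0.10 in BL10. It was chosen after its values were seen.

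Satellite cell and myogenic genes were mixed. Of 17 tested, 3 rose in mdx and 2 fell, whereas in BL10 1 rose and 7 fell. The mdx counts are near the shares of all genes, of which 12.7% rose and 7.48% fell, and in BL10 those shares were 15.4% and 11.9%. Pax7, which marks satellite cells, changed by -0.65 (SE 0.31, adjusted p = 0.149), Myod1 by -0.47 (SE 0.21, adjusted p = 0.128) and Myog, which starts terminal differentiation, by -0.98 (SE 0.38, adjusted p = 0.0766, and 0.0457 without replicate 2 of BL10 at 3 weeks). In BL10, Pax7 fell by 1.17 and Myog by 1.45. Myf5, another myogenic factor, fell in mdx by 1.04 (SE 0.28), a call lost without replicate 2 of mdx at 3 weeks, and integrin alpha 7 (Itga7), a laminin receptor, fell by 0.99 (SE 0.23). The hepatocyte growth factor receptor Met rose by 1.23 (SE 0.27) and the transcription cofactor Eya1 by 0.97 (SE 0.24). Vcam1, an adhesion molecule of satellite cells and of inflamed endothelium, read 7.83, 7.10 and 7.84 in mdx at 5 days and 8.47, 8.12 and 8.49 at 3 weeks. It rose by 0.77 in mdx and fell by 1.02 in BL10, and it was the member with a called difference (1.79, adjusted p = 0.0156). Vcam1 was chosen after its values were seen. Without replicate 2 of mdx at 5 days or replicate 3 at 3 weeks 5 members fell, without replicate 2 of BL10 at 3 weeks 4 did, and without replicate 2 of mdx at 3 weeks 1 did.

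Imprinted growth genes, which drive fetal and early postnatal growth, fell in both strains. Of 14 tested, 12 fell in mdx and 12 in BL10, 11 of them in both, with medians of -1.65 and -1.98, and limma called none of the differences (1 had an unadjusted p under 0.05). Mest read 11.98, 10.79 and 12.76 in mdx at 5 days and 10.37, 8.69 and 9.10 at 3 weeks (-2.46, SE 0.62). Ndn, encoding necdin, changed by -1.77 (SE 0.29), and Mirg, a noncoding RNA of the Dlk1 locus, by -3.95 (SE 0.87). Igf2 read 14.05, 14.03 and 13.91 at 5 days, near the scale's highest value of 14.11, and 12.99, 11.87 and 12.06 at 3 weeks, and its change was -1.69 (SE 0.45). The call of Igf2 was lost without replicate 2 of mdx at 3 weeks. Replicate 2 of BL10 at 3 weeks stood apart here too, with a list mean of 10.87 against 9.17 and 9.22 on the other BL10 arrays of that age.

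Of 30 cell cycle genes tested, none rose and 1 fell in mdx, Mcm3 (-0.50, SE 0.16), while 14 fell in BL10, with medians of -0.12 and -1.06. Mki67, the proliferation antigen, read 8.06, 6.92 and 9.48 in mdx at 5 days and 9.48, 8.51 and 7.80 at 3 weeks. Top2a, the DNA topoisomerase of dividing cells, read 8.14, 7.49 and 10.03 and then 8.92, 8.66 and 7.73. The ages overlapped for both, and replicate 3 at 5 days was the highest 5-day array. In BL10 Mki67 went from 8.51, 8.62 and 8.96 to 5.91, 8.66 and 6.02, with replicate 2 again apart. Limma called no difference of the changes over the list, and 14 had an unadjusted p under 0.05. Without replicate 2 of BL10 at 3 weeks 4 were called more positive in mdx, among them Mki67 (3.18, adjusted p = 0.0398, against 2.27 and 0.219 over all arrays), and 1, Mcm3, more negative (-0.93, adjusted p = 0.0177). When replicate 3 of mdx at 2 weeks was left out as well, 9 were more positive, and without all 5 arrays whose Dmd opposes the label 5 were, with Mcm3 more negative in both. Without replicate 3 of mdx at 5 days 5 were called more positive and 2 members rose in mdx. The call of Mcm3 was lost without any 1 of 6 arrays, and its change was 0.11 with its probe sets averaged and reached 0.44 on leaving out 1 array. The probe set of highest mean was picked anew whenever an array was left out, and its part in these values was not tested.

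Of 29 structural matrix genes tested, 5 fell and 1 rose in mdx (7.48% and 12.7% of all genes), with a median of -0.23. In BL10 21 fell and none rose (11.9% and 15.4%), with a median of -0.83. Fibrillin 2 (Fbn2), of fetal microfibrils, changed by -2.68 (SE 0.31) in mdx and -2.92 in BL10, and versican (Vcan), a provisional-matrix proteoglycan, by -1.57 (SE 0.34). Collagen I (Col1a1) read 12.72, 12.66 and 12.74 at 5 days and 13.77, 12.88 and 11.67 at 3 weeks, a change of 0.07 (SE 0.35, adjusted p = 0.921), and collagen III (Col3a1) changed by -0.06 (SE 0.09). Col15a1, a collagen of basement membranes, rose by 1.30 (SE 0.37) in mdx and fell by 1.34 in BL10, the 1 called difference of the list (2.64, adjusted p = 0.0136). Its mdx level at 5 days, 8.89, 8.22 and 8.49, was below the 10.77, 10.62 and 10.94 of BL10, and at 3 weeks the strains overlapped. Without replicate 1 of mdx at 3 weeks 9 members fell in mdx, without replicate 3 of that group 2 did, and without its replicate 2 or replicate 3 of mdx at 5 days 3 did. The mdx call of Col15a1 was lost without any 1 of 3 mdx arrays.

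Of 20 matrix remodelling genes tested, 6 rose in mdx and none fell, and 14 did not pass the test, against 3 lower and none higher in BL10. Timp1, the inducible inhibitor of metalloproteinases, read 6.70, 6.18 and 7.56 at 5 days and 8.65, 9.23 and 11.31 at 3 weeks. The ages did not overlap and the change was 2.92 (SE 0.54, adjusted p = 0.00069), while in BL10 it was 0.38. Plau, urokinase, rose by 2.62 (SE 0.53). Adam8, a leukocyte protease, rose by 2.16 (SE 0.59), was at 4.0 on 5 of the 6 BL10 arrays, and lost its call without replicate 1 or replicate 3 of mdx at 5 days. The gelatinase Mmp2 changed by -0.53 (SE 0.28, adjusted p = 0.19), and Mmp14, its activator, by -0.95 (SE 0.42, adjusted p = 0.119). The difference of the changes was called for 2 members, cathepsin S and the aggrecanase Adamts4 (2.04, adjusted p = 0.0201), the latter chosen after its values were seen. Called differences numbered 6 without replicate 1 of mdx at 3 weeks and 0 without replicate 1 or 3 of BL10 at 5 days or replicate 3 of BL10 at 3 weeks. With the 6 mdx arrays alone 2 members rose.

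**Figure D4:**
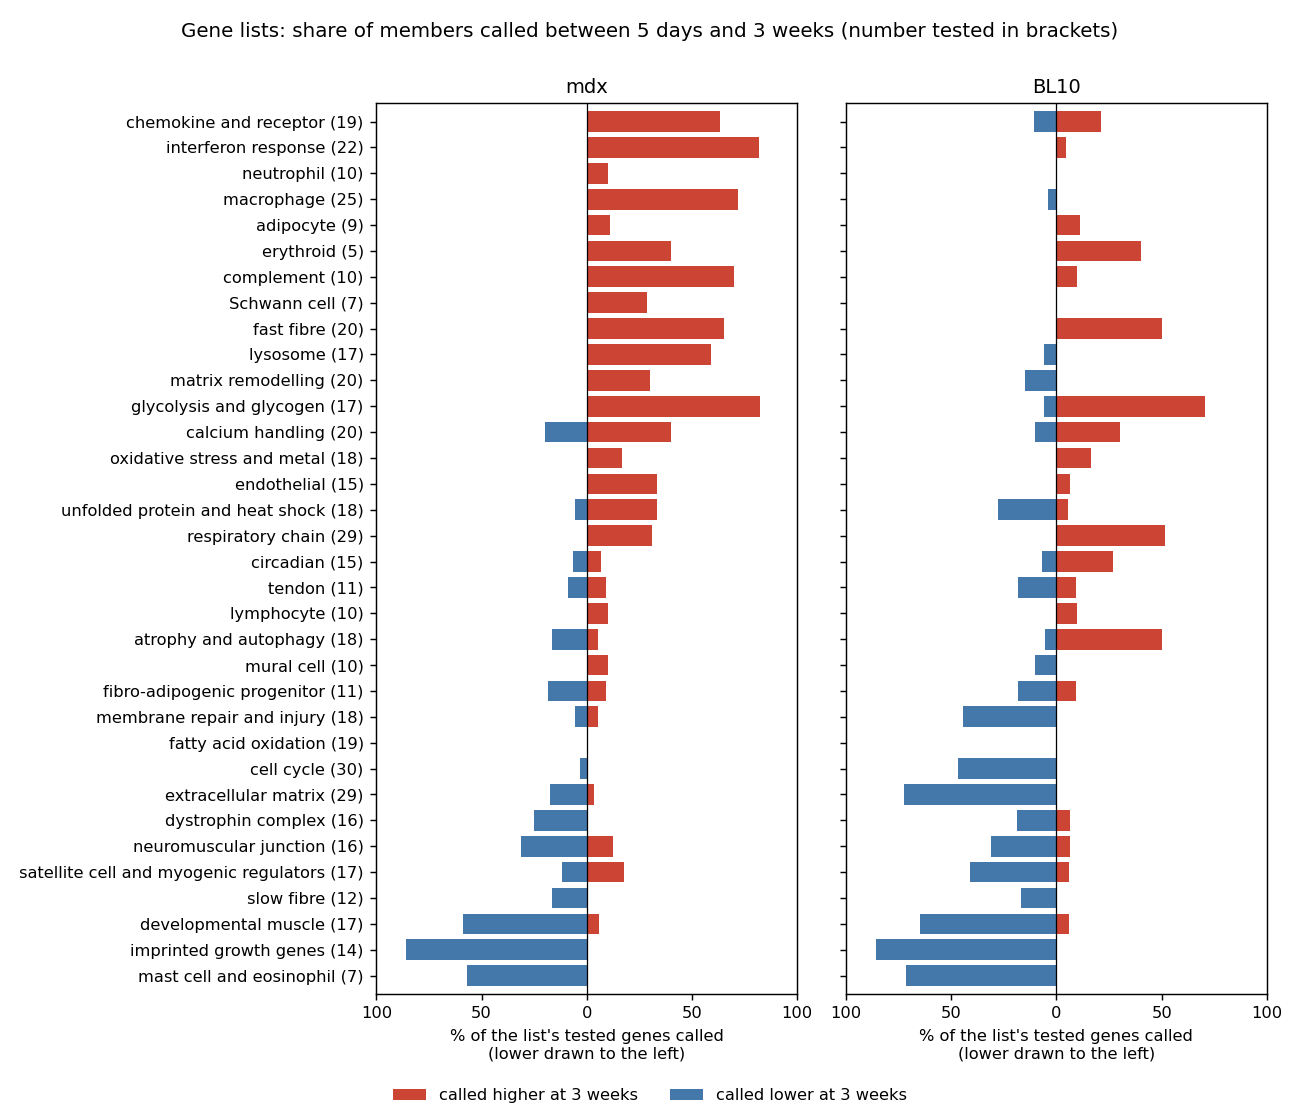
For each gene list, ordered by its median mdx change, bars give the percentage of its tested genes that were called higher (red, to the right) or lower (blue, to the left) at 3 weeks than at 5 days in mdx and in BL10. Chemokine, interferon, macrophage, complement and lysosome lists reach far to the right in mdx and not in BL10, fast fibre, glycolysis and imprinted lists look alike in both strains, and matrix and cell cycle lists reach far to the left in BL10 and less in mdx.

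Of 20 adult fast fibre genes tested, 13 rose in mdx and 10 in BL10, 9 of them in both, and none fell. Myh4, the fastest adult myosin heavy chain, read 11.10, 11.82 and 9.88 in mdx at 5 days and 13.88, 13.77 and 13.93 at 3 weeks, a change of 2.93 (SE 0.26, adjusted p = 2.13e-07). In BL10 it already read 13.28, 13.14 and 12.83 at 5 days and rose to 13.77, 13.88 and 13.79. The strains thus differed at 5 days and overlapped at 3 weeks, where both were close to the scale's highest value of 14.11, and the difference of the changes was 2.20 (SE 0.37, adjusted p = 0.00644). Pvalb, the calcium buffer parvalbumin, followed the same course, from 9.31, 11.04 and 10.81 to 13.73, 13.79 and 13.82 in mdx (change 3.40, SE 0.25) and from 12.09, 11.77 and 11.87 to 13.79, 13.79 and 13.84 in BL10. Rpl3l, the muscle form of a ribosomal protein, rose by 2.83 (SE 0.23) in mdx and by 1.12 in BL10. These 3 were the members with a called difference, and that of Pvalb was lost without replicate 2 or 3 of mdx at 3 weeks and without 5 of the BL10 arrays. Myh2 and Myh1, the other fast myosins, rose in mdx by 2.15 (SE 0.42) and 1.55 (SE 0.29) and were not called in BL10, at 0.33 and 0.19, with no called difference. Without replicate 1 of mdx at 5 days 6 members had a called difference, and with the 6 mdx arrays alone 7 rose.

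Glycolytic genes also rose in both strains. Of 17 tested, 14 rose in mdx and 12 in BL10, 10 in both, with medians of 0.56 and 0.48. None fell in mdx and 1 fell in BL10. Limma called no difference (1 had an unadjusted p under 0.05). Phkg1 and Phka1, subunits of the phosphorylase kinase that releases glucose from glycogen, rose by 2.74 (SE 0.26) and 2.02 (SE 0.28), and Gpd1, of the glycerol phosphate shuttle, by 1.44 (SE 0.14). For Phkg1 the mdx arrays went from 8.64, 8.10 and 7.66 to 10.64, 11.16 and 10.81. Without replicate 2 of mdx at 3 weeks, or without replicate 3 of mdx at 5 days, 9 members rose, and with the 6 mdx arrays alone 5 did. Of 29 respiratory chain genes 9 rose in mdx and 15 in BL10, with smaller medians of 0.21 and 0.31. Cox7a1, the adult muscle form of a cytochrome oxidase subunit, had the list's largest rise, at 1.28 (SE 0.17) in mdx. Leaving out replicate 2 of mdx at 3 weeks, 6 members rose, and with the 6 mdx arrays alone 1 did. Limma called none of 19 genes of fatty acid oxidation in either strain, with 1 at an unadjusted p under 0.05 in mdx and 0 in BL10. Hadha read 12.05, 11.58 and 10.26 at 5 days and 11.84, 11.13 and 9.99 at 3 weeks.

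Slow fibre genes had few calls. Of 12 tested, 2 fell in mdx (7.48% of all genes) and 2 in BL10 (11.9%), and none rose in either (12.7% and 15.4%). Myh7, the slow myosin heavy chain, read 11.31, 10.98 and 10.97 in mdx at 5 days and 12.43, 7.47 and 10.58 at 3 weeks, with replicate 2 far below the others (change -0.93, SE 1.2, adjusted p = 0.636). Tnni1 and Myl2, of slow troponin and myosin, were lowest on the same array, at 8.09 and 8.39. Sln, sarcolipin, an inhibitor of the calcium pump, fell by 2.83 (SE 0.81) in mdx and by 4.06 in BL10, and Myoz2 fell by 1.27 (SE 0.38). Both mdx calls were lost without replicate 2 of mdx at 3 weeks.

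Of 20 calcium handling genes 8 rose and 4 fell in mdx (12.7% and 7.48% of all genes), and 6 rose and 2 fell in BL10 (15.4% and 11.9%). The main release channel Ryr1 rose by 1.10 (SE 0.21) from 12.40, 11.40 and 11.49 to 12.78, 13.18 and 12.64, whereas Ryr3, the channel of immature muscle, fell by 3.01 (SE 0.42) from 8.74, 8.27 and 9.82 to 5.96, 6.20 and 5.64, and in BL10 by 3.63. Stac3, which couples excitation to release, rose by 1.23 (SE 0.25). The adult calcium pump Atp2a1 rose by 0.51 (SE 0.11), at 12.96 to 13.67 before and 13.86 to 13.93 after, near the top of the scale. Only 1 member fell without replicate 2 of mdx at 3 weeks.

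At the neuromuscular junction, 2 of 16 genes rose and 5 fell in mdx (12.7% and 7.48% of all genes), against 1 and 5 in BL10 (15.4% and 11.9%). The adult receptor subunit Chrne rose by 1.46 (SE 0.35) from 6.91, 5.90 and 4.99 to 7.67, 7.33 and 7.18, while Chrng, the fetal subunit it replaces, fell as given above. Chrna1, shared by both receptors, fell by 0.88 (SE 0.30). The stress gene Gadd45a, which denervation induces, rose by 1.56 (SE 0.39) in mdx and 1.68 in BL10. Without replicate 2 of mdx at 3 weeks 1 member fell, without replicate 1 of that group 2 did, and without any 1 of the 5-day mdx arrays, or without replicate 2 or 3 of BL10 at 5 days, 3 did. Without the mdx arrays at 6 weeks 2 members fell.

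Of 16 genes of the dystrophin complex 4 fell in mdx and none rose (7.48% and 12.7% of all genes). In BL10 3 fell and 1 rose (11.9% and 15.4%). Utrophin (Utrn), the dystrophin homologue that can take its place, read 10.11, 10.18 and 10.61 in mdx at 5 days and 9.90, 9.48 and 9.98 at 3 weeks. The 3-week arrays all lay below the 5-day arrays, yet the change of -0.51 (SE 0.22) was not called (adjusted p = 0.109), and BL10 changed by -0.60. Sntb1, a syntrophin, fell by 1.70 (SE 0.49), Cav3, caveolin 3, by 0.82 (SE 0.23) and Lama2, the laminin that the complex binds, by 0.74 (SE 0.22). Dag1, dystroglycan, changed by 0.19 (SE 0.10, adjusted p = 0.197). The fourth member that fell was the laminin receptor Itga7. The calls of Sntb1, Cav3 and Lama2 were each lost without replicate 2 of mdx at 3 weeks, when 1 member fell, without replicate 1 of that group 2 fell, and with the 6 mdx arrays alone none did.

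Membrane repair genes had few calls in mdx: of 18 tested, 1 rose and 1 fell, Cav3, and 8 fell and none rose in BL10. Over all genes 12.7% rose and 7.48% fell in mdx, and 15.4% and 11.9% in BL10. The calcium-binding protein S100a4, also abundant in leukocytes, rose by 2.18 (SE 0.36) from 8.37, 9.06 and 7.61 to 10.12, 10.65 and 10.82. Dysferlin (Dysf), the repair sensor, changed by 0.31 (SE 0.24, adjusted p = 0.403) and annexin A1 (Anxa1) by 0.77 (SE 0.28, adjusted p = 0.0574). Tmsb10, a small actin-binding protein, was the 1 member with a called difference (1.48, adjusted p = 0.0314), at 0.44 in mdx and -1.04 in BL10, and was chosen after its values were seen. The list had no called positive difference without any 1 of 7 arrays, among them replicates 2 and 3 of mdx at 3 weeks. Without replicate 3 of that group 1 member had a called negative difference.

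For atrophy and autophagy genes 1 mdx array at 5 days was far above the others. Of 18 tested, 1 rose and 3 fell in mdx (12.7% and 7.48% of all genes), with a median of 0.03. In BL10 9 rose and 1 fell (15.4% and 11.9%), with a median of 0.77. The ubiquitin ligase Trim63 read 10.13, 12.68 and 9.38 in mdx at 5 days and 10.65, 11.70 and 11.46 at 3 weeks, and Fbxo32, a second ligase of wasting muscle, 7.55, 11.51 and 7.41 and then 9.31, 10.26 and 9.56. Replicate 2 at 5 days was the highest of all 6 mdx arrays for both, and the changes of 0.54 (SE 0.48, adjusted p = 0.474) and 0.89 (SE 0.66, adjusted p = 0.378) were not called. Without that array 6 members rose in mdx. Metallothionein 1 (Mt1), a metal- and glucocorticoid-inducible gene, was the highest there of the 5-day mdx arrays, at 13.82 against 11.31 and 12.21. The called members were Becn1, an autophagy gene (0.58, SE 0.13), and, in the lower direction, Sesn1 (-1.75, SE 0.40), the translation repressor Eif4ebp1 (-1.17, SE 0.22) and Foxo3 (-0.62, SE 0.22), the last of which kept its call in 9 of 27 settings.

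Chaperones of the endoplasmic reticulum fold secreted proteins. Of 18 genes of the unfolded protein and heat shock responses 6 rose and 1 fell in mdx (12.7% and 7.48% of all genes). In BL10 1 rose and 5 fell (15.4% and 11.9%). Hspa5, the chaperone BiP, read 10.95, 10.61 and 10.62 in mdx at 5 days and 10.94, 11.52 and 12.08 at 3 weeks, a rise of 0.79 (SE 0.19), and fell by 0.52 in BL10. Its difference of the changes was 1.31 (SE 0.26, adjusted p = 0.014), and Hsp90b1 (1.37, adjusted p = 0.0206) and calreticulin, Calr (1.42, adjusted p = 0.0201), had called differences as well. In BL10 at 5 days Hspa5 read 11.32, 11.39 and 11.42, above every 5-day mdx array. Hsp90b1 and Calr were chosen after their values were seen. Without replicate 3 of mdx at 3 weeks, or of mdx at 5 days, 2 members rose, without replicate 2 of mdx at 3 weeks 3 did, and with the 6 mdx arrays alone none did. The called differences numbered 1 without replicate 2 of mdx at 3 weeks or replicate 3 of BL10 at 5 days. Of 18 genes of oxidative stress 3 rose in mdx (12.7% of all genes rose), Cybb, its partner Ncf1 (1.53, SE 0.22) and the peroxidase Gpx1 (1.04, SE 0.20), and Hmox1, the haem-degrading enzyme, changed by 0.62 (SE 0.29, adjusted p = 0.139). In BL10 3 of the 18 rose as well, and 0 were called in the same direction in both strains. Without replicate 2 of BL10 at 3 weeks 2 of the 18 had a called negative difference. Of 15 clock genes 1 rose in mdx, Nr1d2, and 1 fell, Cry2 (-1.51, SE 0.37), beside 12.7% and 7.48% of all genes. Per2 had a called difference of -1.77 (limma adjusted p = 0.0456) and was chosen after its values were seen. In BL10 4 clock genes rose and 1 fell (15.4% and 11.9% of all genes), with a median of 0.54 against 0.20 in mdx. No clock gene had a called difference without any 1 of 9 arrays, among them replicates 1 and 2 of mdx at 3 weeks. The call of Nr1d2 was lost without replicate 3 of mdx at 5 days, and without replicate 1 of that group 3 clock genes rose.

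The 10 most positive differences included 6 genes of no list. The macrophage gene Wfdc17 read 5.31, 5.5 and 4.99 in mdx at 5 days and 7.5, 9.22 and 9.03 at 3 weeks, and its difference of 3.46 (SE 0.53, adjusted p = 0.00464) held in all 27 settings. The actin bundler Lcp1, of blood cells, had a difference of 3.40 (SE 0.53) and held in all settings too. Plek, pleckstrin, of platelets and phagocytes, had one of 3.15 (SE 0.70), lost without any 1 of 8 arrays, and the interferon-induced Ifi209 one of 3.36 (SE 0.69). Slfn4, a schlafen of myeloid cells, read 4.78, 4.42 and 5.31 at 5 days and 6.07, 11.34 and 10.05 at 3 weeks, with a difference of 4.11 (SE 1.05, adjusted p = 0.0464) that kept its call in 10 of 26 settings and was lost without any 1 of 9 arrays.

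In the other direction, the genes with the most negative differences were of several kinds, and for several of them the strains already differed at 5 days. Adh1, alcohol dehydrogenase, read 8.97, 10.34 and 10.25 in mdx at 5 days and 9.82, 10.21 and 9.20 at 3 weeks, with no change called, while in BL10 it rose from 8.04, 7.46 and 7.27 to 10.50, 9.85 and 10.51. Cyp4f15, a cytochrome P450, behaved likewise, at 7.05 to 8.27 over the 6 mdx arrays, and in BL10 going from 6.57, 4.19 and 4.0 to 8.63, 8.48 and 8.0. Since 1 of those BL10 arrays was at the scale's lowest value and another near it, the size of the Cyp4f15 difference is uncertain, and it ran from -5.24 to -1.88 over the settings. The differences of Adh1 and Cyp4f15 were -2.80 (SE 0.44, adjusted p = 0.00464) and -3.09 (SE 0.61, adjusted p = 0.013). Egfbp2, a kallikrein, fell in mdx from 8.67, 9.58 and 7.85 to 6.30, 6.02 and 6.07, and BL10 stayed at 5.84 to 6.48 throughout. Angiotensinogen (Agt) fell from 8.81, 10.30 and 8.38 to 6.21, 6.88 and 6.92, with BL10 at 7.10 to 7.85, and its difference was lost without replicate 3 of BL10 at 5 days. Cenpb, a centromere protein, was level in both strains at 5 days (8.12 to 8.52) and fell to 5.93, 5.68 and 7.52 in mdx at 3 weeks against 9.09, 8.74 and 8.81 in BL10. Its call was lost without any 1 of 8 arrays.

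The 10 largest falls in mdx had no called difference from BL10. Prr32 changed by -4.94 (SE 0.71) in mdx and -4.58 in BL10, and the angiotensin receptor Agtr2, of fetal tissues, read 11.07, 11.18 and 11.62 in mdx at 5 days and 7.62, 6.62 and 6.25 at 3 weeks (-4.46, SE 0.50, against -3.93 in BL10). Nrk, a kinase of embryonic muscle, changed by -4.13 (SE 0.42) and -3.87. Among the 10 with the largest rises in mdx, 4 had one (Slfn4, Mpeg1, Clec7a and Ccr2), whereas the transcription factor Dach1 rose by 4.23 (SE 0.30) in mdx and 2.73 in BL10, Tnfaip2 by 3.77 (SE 0.30) and 3.29, and Asphd1 by 4.42 (SE 0.36) and 4.74. Retnla, a secreted product of alternatively activated macrophages and of fat, was at 4.0 on all 3 mdx arrays at 5 days and read 7.90, 8.77 and 8.72 at 3 weeks, and 8.27, 6.81 and 8.67 in BL10 at that age.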

How the data were processed

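Total RNA of quadriceps was hybridised as biotin-labelled cRNA to Affymetrix arrays. The authors deposited a linear intensity for each probe set, and PLIER is the tool named in the submitters' processing notes. Its version, background and scaling settings are not given in the sources used here. Of 45101 probe sets 64 are controls. Of the 45037 analysed, 34945 carry 1 gene symbol in the platform table, 932 several and 9160 none. Median intensity was 48.4 to 53.2 over the 12 arrays compared. Precision is limited by how few arrays there are, with a median SE of 0.225 for the mdx change and 0.318 for the difference of the changes.

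Arrays were quantile normalized, values below 0 set to 0, 16 added and log2 taken. For each of 18193 symbols the probe set with the highest mean was kept. Genes over the 40th percentile within an array, in 3 or more arrays, were tested, which left 15000. A single limma model (3.58.1, R 4.3.3) over all 24 arrays took 8 group means, with an intensity trend, 16 residual and 5.15 prior degrees of freedom, two-sided tests and Benjamini-Hochberg adjustment over all genes tested. For 1 gene and groups of 3, exact permutation can reach no p below 0.1.

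The members, the 34 gene lists and the rule for naming genes were chosen with earlier results of these data known. The rule names Dmd, Utrn, the 10 highest and lowest mdx changes without overlap and the 10 highest and lowest differences among called genes, 5 each for BL10, and of each list the first 3 members and up to 4 called members of largest mdx change. Not all are printed, and genes outside it that are singled out are marked as chosen after their values were seen. Replicate numbers give no known pairing. The fit was tested on simulated data, 10 draws over 15000 genes with 100 genes shifted by 1 and 100 by 2: for the mdx change 48% to 65% and 92% to 98% were recovered, with 2 to 16 unshifted genes called, and for the difference 15% to 32% and 76% to 90%. The draws used independent normal noise with 1 spread per gene on all arrays. They also shifted far fewer genes than the 3032 called in mdx, which makes the Benjamini-Hochberg threshold stricter in the draws. Estimated weights of the real arrays ran from 0.359 to 4.38, so their spreads were unequal and these rates need not hold for them. The alternatives were 2 other scalings, 2 other added constants, 2 other filters, mean probe sets, no trend and array weights. Others were a replicate block, fewer arrays, a 2-fold minimum and leaving out, 1 at a time, each of the 12 arrays of the 4 groups. Leaving out the 6-week mdx arrays, and all 5 arrays whose Dmd opposes the label, was added after seeing the data. Python 3.11.15 and matplotlib 3.10.9 were used for figures.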

Additional observations from a re-analysis of the deposited data

Results flagged for a closer look

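For 30 of the genes named by rule, the change from 5 days to 3 weeks differed between mdx and BL10 by limma's test of the difference itself. Values are the mdx change minus the BL10 change in log2 units, with 3 arrays in each of the 4 groups.

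The largest positive differences were those of Mpeg1 (4.55), Slfn4 (4.11), Clec7a (3.65), Wfdc17 (3.46), Ccr1 (3.42), Lcp1 (3.40), Ptprc (3.37), Ifi209 (3.36), Cybb (3.28) and Plek (3.15). The value for Clec7a depends on the added constant, since all 3 mdx arrays at 5 days were at the lowest value. Also positive were C3ar1 (3.06), Ccr2 (2.98), Ctss (2.97) and C5ar1 (1.91).

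Genes of muscle, vessel and matrix with positive differences were Col15a1 (2.64), Myh4 (2.20), Rpl3l (1.72), Pvalb (1.5), Hspa5 (1.31) and Rgs5 (1.26). All 6 were lower in mdx than in BL10 on average at 5 days.

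Negative differences were those of Cyp4f15 (-3.09), Adh1 (-2.80), Tmem267 (-2.72), Gm11190 (-2.57), Egfbp2 (-2.53), Cenpb (-2.46), Trav9d-3 (-2.34), Nutm1 (-2.16), Agt (-2.14) and Dpep1 (-2.13). Nutm1 read 4.0 to 6.75 over the 12 arrays, close to the lowest value of the scale. Cyp4f15 and Trav9d-3 had BL10 arrays at 5 days at the lowest value, so the sizes of their differences are uncertain, and over the settings they ran from -5.24 to -1.88 and from -4.18 to -0.50.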

How the results depend on the processing

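Of 134 named genes called in mdx, 57 kept their call in all 26 settings other than the 2-fold minimum, as did 4 of 30 called differences. Against 3032, 4094 and 264 calls for mdx, BL10 and the difference, values as deposited gave 493 differences and median centring 397, of which 89.2% and 86.4% were more positive in mdx rather than 70.8%; as deposited, 43.5% of BL10 calls were higher rather than 56.3%, and the median difference over all genes was 0.13 rather than -0.01. Mean probe sets gave 167 differences, the arrays compared alone 855 mdx calls and 15 differences, leaving out the 2 arrays at 2 and 3 weeks whose Dmd opposes the label 717 differences, the 3 mdx arrays at 6 weeks 134, all 5 such arrays 438, and a 2-fold minimum 1256 mdx and 1493 BL10 calls. Leaving out 1 of the 12 arrays of the 4 groups gave 1868 to 3216 mdx calls, 2419 to 4754 BL10 calls and 102 to 539 differences. Mcm3 reversed: its mdx change of -0.50 was 0.11 with mean probe sets, and leaving out 1 array moved it from -0.54 to 0.44, the latter without replicate 1 or replicate 3 of BL10 at 3 weeks, while its difference ran from -0.93 to 1.65. No BL10 array enters the mdx change itself, but the probe set of highest mean was picked anew over the arrays kept in each setting. Which probe set stood for Mcm3 in each setting was not tested.

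The replicate number as a block gave 3254, 4343 and 319 calls. Deviations of same-numbered mdx arrays at the 2 ages correlated over genes at 0.04, 0.09 and 0.05, and those of differently numbered mdx arrays at -0.08 to 0.02. In BL10 the same-numbered values were -0.09, -0.08 and 0.01. With 3 arrays a group, values this small cannot decide whether same-numbered arrays share more than a name. In the simulated draws, with 3 arrays a group, changes of 1 in log2 were often missed.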
